A study of Mus musculus with 4 samples.

Results

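The integrated stress response is a pathway in which kinases that sense amino acid shortage, unfolded protein in the endoplasmic reticulum or other stresses phosphorylate the translation factor eIF2, which slows protein synthesis in general and favours translation of the transcription factor ATF4. ATF4 and its partner CHOP then raise genes of amino acid synthesis and uptake, and genes that feed back on the response. In Paneth cells, which sit at the bottom of crypts in the small intestine and secrete antimicrobial proteins, a heavy load of secretory protein makes stress pathways of the endoplasmic reticulum a topic of study. ATF4 is controlled largely at translation, so the level of its own mRNA is only one part of its activity.

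The members described here were 10 genes of this programme, Atf4, Ddit3 (CHOP), Trib3, Ppp1r15a, Sesn2, Ddit4, Asns, Psat1, Phgdh and Chac1. They were taken by gene symbol from the platform annotation of 18193 genes, which gave 20 of the 45037 probe sets that are not controls. A further 2 probe sets carry Phgdh together with another symbol and are not described. The list was chosen by pathway, with the intensity differences between hypomorph and wildtype arrays already known, so the values and calls of the members are a description and not an independent test. All 10 genes had at least 1 probe set bright enough to test, and 16 of their 20 probe sets were tested.

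RNA came from Paneth cells cut out of mouse tissue by laser capture, amplified, and hybridised to 4 arrays. There were 2 arrays from Atg16 hypomorph mice, which carry an allele of reduced function of the autophagy gene Atg16l1, and 2 from wildtype mice. Both groups were of a mixed C57BL/6 and 129ola background. The labels used here do not give the age or sex of the animals, the number of cells captured or any pooling, and do not say whether the arrays of 1 group are of different animals. P-values therefore measure only the spread between these arrays, possibly technical, and 2 arrays a group limit the precision.

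Median intensities of the arrays lay between 47.2 and 49.5, so the arrays were on a common scale. Atg16l1 read 966 and 995 on the hypomorph arrays, against 1335 and 1183 on the wildtype arrays, and was not called. Xist, which marks the inactive X chromosome of female cells, had a mean intensity of 4462 in hypomorph and 21.8 in wildtype samples. As read by this transcript, the hypomorph samples were female and the wildtype samples were not. Sex and genotype therefore cannot be told apart in any difference below. Paneth cell markers summed to 67284 and 72763 in hypomorph, against 73072 and 73567 in wildtype samples. By limma 0 of 7 were called and 2 had an unadjusted p under 0.05, beside 21.7% of all genes tested. The alpha-defensin genes Defa24, Defa5 and Defa20, also listed, had no probe set of 1 symbol and were not read. Fat cell markers summed to 24780 and 23764 in hypomorph, against 9132 and 9103 in wildtype samples. Of 8 on the array 7 were called higher and Retn was too dim to test. Enterocyte markers summed to 22005 and 22769 in hypomorph, against 15075 and 15753 in wildtype samples. Of the 8 tested 6 were called higher, and Treh was too dim to test. The others tested, Vil1 and Fabp2, were not called. Vil1 had means of 3935 in hypomorph and 3518 in wildtype samples, and Fabp2 of 8070 and 7613. Among all genes tested 2.53% were called higher. The markers, too, were chosen with earlier results of these data known. In such bulk samples, more cells of a type and more RNA per cell cannot be told apart. These marker shifts lie between the same groups as every difference below, and their part in it was not tested.

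ATF4 binds, together with C/EBP factors, a composite element whose core can be written TGATGNAA. The RefSeq windows from 250 bases before to 50 bases after the transcription start (build GRCm38.p6) were searched for it on both strands. Of the 10 members, 3 had a match, Chac1, Trib3 and Asns, where 3.97% of all 32851 windows had one. The 3 windows are shown because they belong to the members with the largest rise and to the gene in which such an element is best known. Capitals mark the match, and each sequence runs 5′ to 3′ along the gene.
Chac1 (chr2:119350992-119351291, plus strand): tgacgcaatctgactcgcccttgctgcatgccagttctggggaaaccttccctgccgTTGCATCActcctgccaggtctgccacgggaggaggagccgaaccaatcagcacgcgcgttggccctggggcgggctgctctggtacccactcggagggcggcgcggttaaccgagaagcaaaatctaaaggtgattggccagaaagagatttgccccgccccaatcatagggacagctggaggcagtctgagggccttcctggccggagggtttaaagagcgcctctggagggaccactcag
Trib3 (chr2:152344011-152344310, minus strand): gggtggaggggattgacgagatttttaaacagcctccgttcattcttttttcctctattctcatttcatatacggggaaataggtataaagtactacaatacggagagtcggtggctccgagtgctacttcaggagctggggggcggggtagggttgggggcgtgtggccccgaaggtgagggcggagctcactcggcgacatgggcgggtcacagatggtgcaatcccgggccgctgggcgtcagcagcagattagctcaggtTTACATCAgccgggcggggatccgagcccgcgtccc
Asns (chr6:7693160-7693459, minus strand): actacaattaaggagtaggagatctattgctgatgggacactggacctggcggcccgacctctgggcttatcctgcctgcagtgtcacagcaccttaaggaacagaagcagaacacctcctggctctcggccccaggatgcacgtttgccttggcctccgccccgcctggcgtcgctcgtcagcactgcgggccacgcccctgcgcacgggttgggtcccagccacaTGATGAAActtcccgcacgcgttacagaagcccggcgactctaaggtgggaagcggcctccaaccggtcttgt
The match of Chac1 reads TGATGCAA on the opposite strand, from base -193 to base -186 counted from the start. That of Trib3 reads TGATGTAA on the opposite strand and lies just after the start, from base 15 to base 22. That of Asns reads TGATGAAA on the gene's own strand, from base -23 to base -16. The cyclic AMP response core TGACGTCA, which other ATF factors bind, was found in 1 member, Ppp1r15a, beside 1.79% of all windows, and overlapped no TGATGNAA match. A match is a string of letters and does not show binding, and its absence says only that these letters are not in the window.

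Chac1, Trib3 and the serine synthesis gene Phgdh were called higher in hypomorph samples, Chac1 and Trib3 by the most. Ddit4, with a negative difference, and Atf4, with a smaller positive one, were not called. Ddit3, Sesn2 and Ppp1r15a had differences smaller than their errors. Differences below are given on the scale log2(intensity + 32), as hypomorph minus wildtype, with the standard error (SE) from limma. Adding 32 makes the change of a dim gene look smaller than it is. They were fitted for every probe set, and a call is an adjusted p under 0.05 over all 22519 probe sets tested. Of the 16 tested probe sets of members, 4 were called higher and 0 lower, beside 3.71% of all tested probe sets called in either direction, 2.04% higher and 1.67% lower. Over all 20 probe sets the median difference was 0.16, and over the brightest probe set of each of the 10 genes 0.15, against -0.02 for all 11577 genes tested. By the brightest probe set both hypomorph arrays lay above both wildtype arrays for 6 of the 10 genes, and below them for 2, beside 23.4% and 30% of all genes. As the genes were listed with these differences known, nothing is read from these shares.

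**Figure D1:**
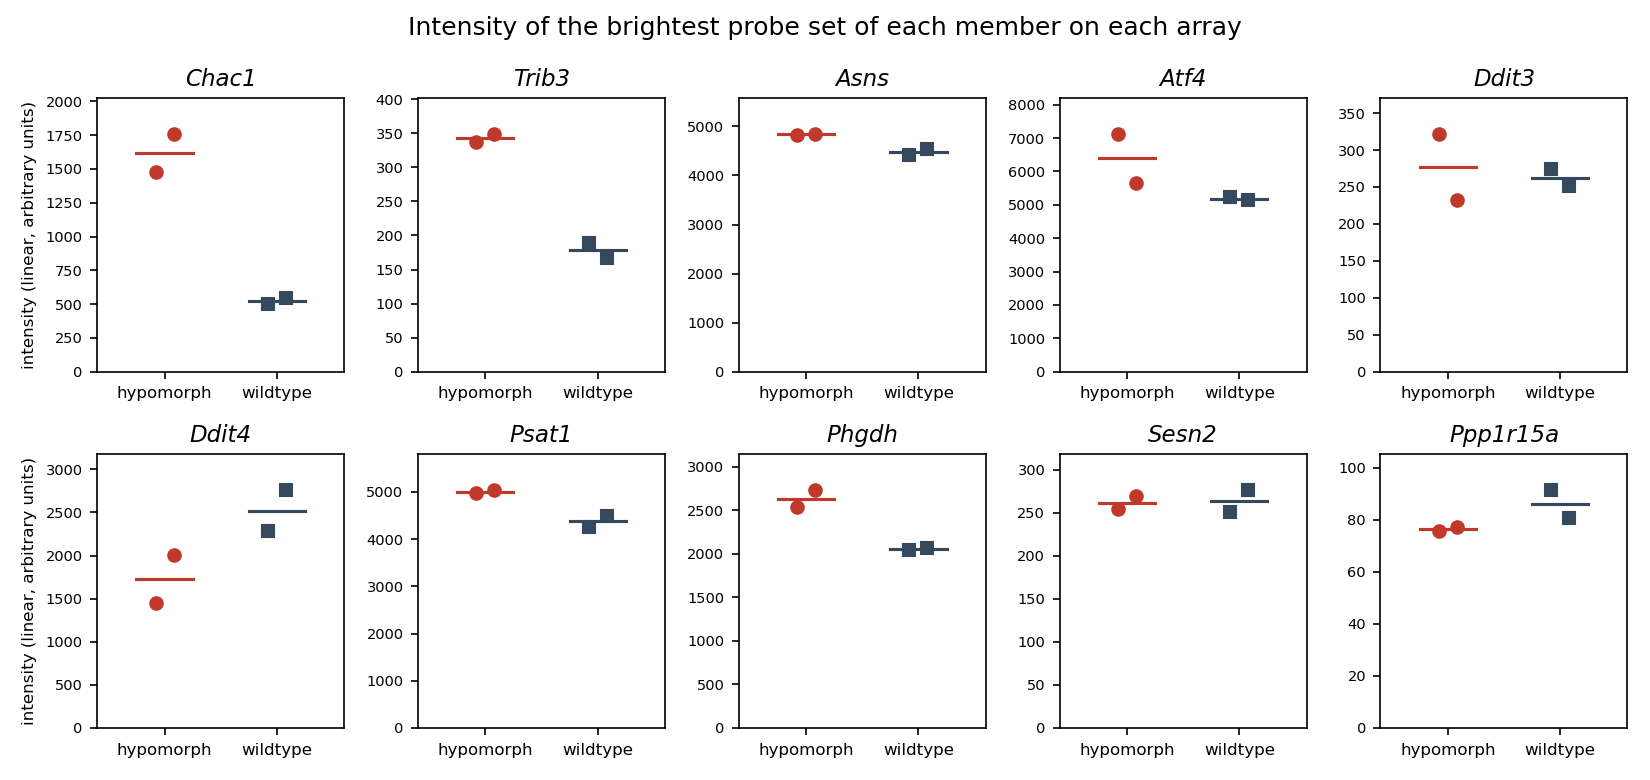
Deposited linear intensity (arbitrary units, each axis starting at 0) of the brightest probe set of each member on the 2 hypomorph arrays (circles) and the 2 wildtype arrays (squares), with horizontal lines at the group means. The groups are far apart for Chac1 and Trib3, overlap for Ddit3 and Sesn2, and run the other way for Ddit4 and Ppp1r15a.

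Of the transcription factors, Atf4 itself was measured by 3 probe sets of very different brightness. Its brightest read 7132 and 5652 on the hypomorph arrays, against 5224 and 5148 on the wildtype arrays. This probe set is of a class whose probes can also match other sequences. Both hypomorph arrays were above both wildtype arrays, but the hypomorph arrays were far apart from each other. The difference was 0.29 (SE 0.094) and was not called. A second probe set of Atf4 read 488 and 484 in hypomorph, against 363 and 401 in wildtype samples, a difference of 0.32 (SE 0.13), also not called. There the hypomorph arrays were nearly equal. The other Atf4 probe set, at 21.2 and 10.6 in hypomorph and 3.83 and 5.34 in wildtype samples, was too dim to test. The brightest was called without hypomorph replicate 2, the lower of its group, where the difference was 0.46.

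Ddit3 encodes CHOP, which works downstream of ATF4 and favours cell death when stress persists. It read 322 and 233 in hypomorph, against 274 and 251 in wildtype samples. The wildtype values lay between the hypomorph values, so the groups overlapped. Its difference was 0.06 (SE 0.17), and without hypomorph replicate 1 it was -0.15. Its other probe set gave 17.5 and 3.82 in hypomorph, against 1 and 14.5 in wildtype samples, and was too dim to test.

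Among the regulators that act on the response, Trib3, a pseudokinase induced by ATF4 and CHOP that can restrain them in turn, differed most. It read 338 and 350 in hypomorph, against 189 and 167 in wildtype samples, means of 344 ± 8.2 and 178 ± 15.8 (SD, n = 2 each). The hypomorph mean was 1.93 times that of wildtype, and the gap between the groups was larger than the gap within either. The difference was 0.84 (SE 0.15) and was called higher, and 215 tested probe sets had a larger rise. The call was lost without wildtype replicate 2, where the difference was 0.76 (limma adjusted p = 0.0712), with no filter on dim probe sets (limma adjusted p = 0.0562) and with both probe sets of the gene averaged (0.47, limma adjusted p = 0.0749). A second probe set of Trib3, at 15.8 and 29.6 in hypomorph and 22.3 and 15.6 in wildtype samples, was too dim to test, and its groups overlapped. The bright probe set is of a class whose probes can also match other sequences, so the call of Trib3 rests on 1 probe set of that class.

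Ppp1r15a encodes GADD34, which directs a phosphatase to eIF2 and so ends the response. It read 75.6 and 77.3 in hypomorph, against 91.4 and 80.7 in wildtype samples. Both hypomorph arrays were slightly below both wildtype arrays, with a difference of -0.12 (SE 0.16) that was smaller than its error. Sesn2, a stress-induced leucine sensor that inhibits mTORC1, read 254 and 270 in hypomorph, against 251 and 277 in wildtype samples. Its groups overlapped, with a difference of -0.01 (SE 0.15). Its second probe set read at most 8.87 on any array.

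Ddit4 encodes REDD1, another inhibitor of mTORC1 that ATF4, low oxygen and glucocorticoids all induce. It read 1451 and 2009 in hypomorph, against 2280 and 2760 in wildtype samples, means of 1730 ± 395 and 2520 ± 340 (SD, n = 2 each). Both hypomorph arrays were below both wildtype arrays, but the arrays within each group were also well apart. The difference of -0.55 (SE 0.14) was not called, and 659 tested probe sets had a larger fall. It was called without hypomorph replicate 2, at -0.78, and without wildtype replicate 1, at -0.68, and not without the other arrays, at -0.32 and -0.41. Genes that respond to glucocorticoids differed in the same direction. All 10 of a list of them had both hypomorph arrays below both wildtype arrays, beside 30% of all genes tested, and 7 of 10 fell (limma), beside 1.7%, or 4 of 10 without an intensity trend or with the probe sets of a gene averaged. The list's median difference was -0.65, and its summed intensity was 22562 and 23346 in hypomorph, against 31783 and 30119 in wildtype samples. The largest falls were of Pdk4 (-1.44), the kinase gene Sgk1 (-1.02), the clock gene Per1 (-0.93) and the metallothionein Mt2 (-0.82). The call of Per1 was lost without wildtype replicate 2 and with no filter on dim probe sets. This list, too, was chosen with earlier results of these data known, so nothing is read from its shares. The part of these genes' common shift in the level of Ddit4 was not tested.

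**Figure D2:**
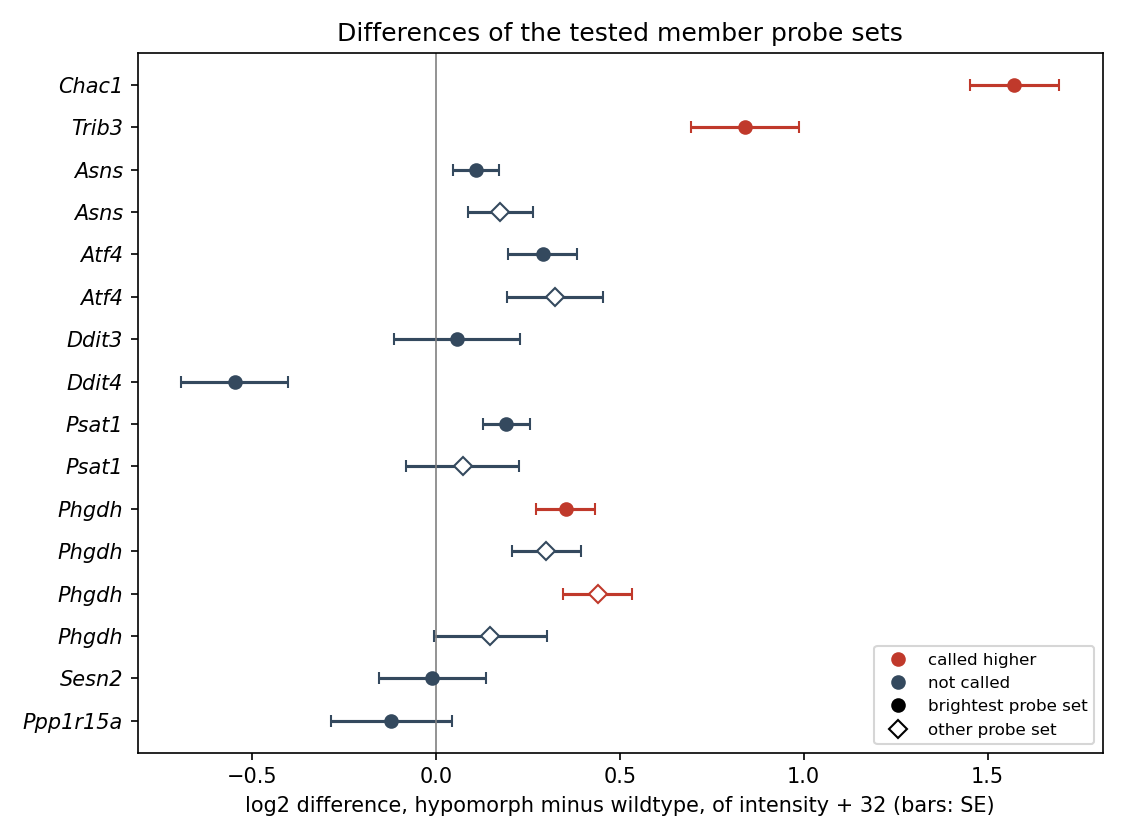
Difference of each tested probe set of the members (x axis, hypomorph minus wildtype of log2(intensity + 32)), with bars of 1 SE. Filled circles are the brightest probe set of a gene and open diamonds its other tested probe sets, and red marks calls. Chac1 stands at 1.57 and Trib3 at 0.84, the 4 Phgdh probe sets all lie above 0, and Ddit4 stands at -0.55.

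The amino acid enzymes had differences of at most 0.44. Phgdh, phosphoglycerate dehydrogenase, which starts serine synthesis, was covered by 4 probe sets of its own. The brightest read 2532 and 2731 in hypomorph, against 2041 and 2064 in wildtype samples, a difference of 0.35 (SE 0.081) that was called higher. The next read 2190 and 2512 in hypomorph, against 1834 and 1967 in wildtype samples, with 0.30 (SE 0.093), not called. The third read 1799 and 1640 in hypomorph, against 1252 and 1263 in wildtype samples, with 0.44 (SE 0.094), called higher. The dimmest read 236 and 251 in hypomorph, against 235 and 200 in wildtype samples, with 0.15 (SE 0.15), not called. In all 4 both hypomorph arrays were above both wildtype arrays, although the probe sets measure 1 gene on the same samples and are not replicates. All 4 are of the class that can match other sequences. The call of the brightest was kept only without hypomorph replicate 1. Without hypomorph replicate 2 its difference was 0.30, without wildtype replicate 1 it was 0.35 and without wildtype replicate 2 it was 0.36, none of them called. It was also not called with no filter on dim probe sets, without an intensity trend or with the probe sets of the gene averaged (0.31). The other called probe set was likewise called in 1 of 4 such fits, with differences between 0.37 and 0.51.

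Psat1, phosphoserine aminotransferase, catalyses the next step of serine synthesis. Its brightest probe set read 4970 and 5043 in hypomorph, against 4267 and 4497 in wildtype samples. This probe set is of a class whose probes can match several transcripts. The groups did not overlap, and the difference of 0.19 (SE 0.063) was not called. Its dimmer probe set read 247 and 299 in hypomorph, against 251 and 263 in wildtype samples, so that its groups overlapped, with a difference of 0.07 (SE 0.15). Asns, asparagine synthetase, is a classic target of ATF4 under amino acid shortage. It read 4822 and 4852 in hypomorph, against 4422 and 4542 in wildtype samples, a difference of 0.11 (SE 0.061). The brightest probe set of Asns, read here, is of the class that can match other sequences. Its second probe set read 1891 and 2063 in hypomorph, against 1705 and 1788 in wildtype samples, a difference of 0.17 (SE 0.088). Both hypomorph arrays were above both wildtype arrays on both probe sets, and neither was called.

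Chac1 encodes an enzyme that degrades glutathione and is induced by ATF4 and CHOP. It read 1476 and 1761 in hypomorph, against 498 and 545 in wildtype samples, means of 1619 ± 201 and 521 ± 33.8 (SD, n = 2 each), a ratio of 3.10. Even the lower hypomorph array was well above both wildtype arrays. Its difference of 1.57 (SE 0.12) was the largest among the members, and 41 of the 22519 tested probe sets had a larger rise. It was called higher without each array in turn, with differences between 1.45 and 1.70. Only 1 probe set measured Chac1.

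Many genes near Chac1 on chromosome 2 were called too. Of the 25 tested genes on either side of it in RefSeq order, 12 of 50 (24%) were called, 7 higher and 5 lower, beside 4.23% of all genes tested. Its direct neighbours on one side, Dll4 and Vps18, differed by -0.20 (SE 0.17) and -0.06 (SE 0.17), and the third, the GTPase gene Rhov, was higher, at 257 ± 50.8 in hypomorph against 77.0 ± 0.25 in wildtype samples. On the other side Exd1 was higher, at 287 ± 17.2 in hypomorph against 98.1 ± 16.5 in wildtype samples, Oip5os1 differed by -0.01 (SE 0.11) and Oip5 was lower, at 78.3 ± 27.4 in hypomorph against 180 ± 6.3 in wildtype samples (SD, n = 2 each). Farther off stood differences of 3.18 for Tmem87a and -1.61 for Vps39, the 15th and 14th tested gene from Chac1, and of -0.95 for Ccdc32. The same stretch holds Eif2ak4, the amino acid sensing kinase GCN2 that acts upstream of ATF4, 22 genes from Chac1, which read 349 and 401 in hypomorph, against 630 and 489 in wildtype samples. Its difference of -0.53 (SE 0.15) was not called. Both groups were of mixed strain background, and whether they carried different strain alleles of this stretch, and what that would contribute to the level of Chac1, was not tested.

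Trib3 lies on the same chromosome, but 0 of its 50 nearest tested genes were called, with a median difference of 0.06. Around Asns 4 of 45 were called (8.89%), beside 4.23% of all genes tested. Of 50 each around the other members, the calls numbered 5 for Phgdh (10%), 4 for Ppp1r15a (8%) and 3 for Ddit4 (6%). They numbered 2 for Atf4 (4%), 1 each for Ddit3 and Psat1 (2%) and 0 for Sesn2. Without Chac1, the median difference of the members by their brightest probe sets was 0.11. Of these 9 genes 2 were called, both higher, beside 4.23% of all genes tested called in either direction and 2.53% higher. As the genes were listed with these differences known, nothing is read from this share.

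**Figure D3:**
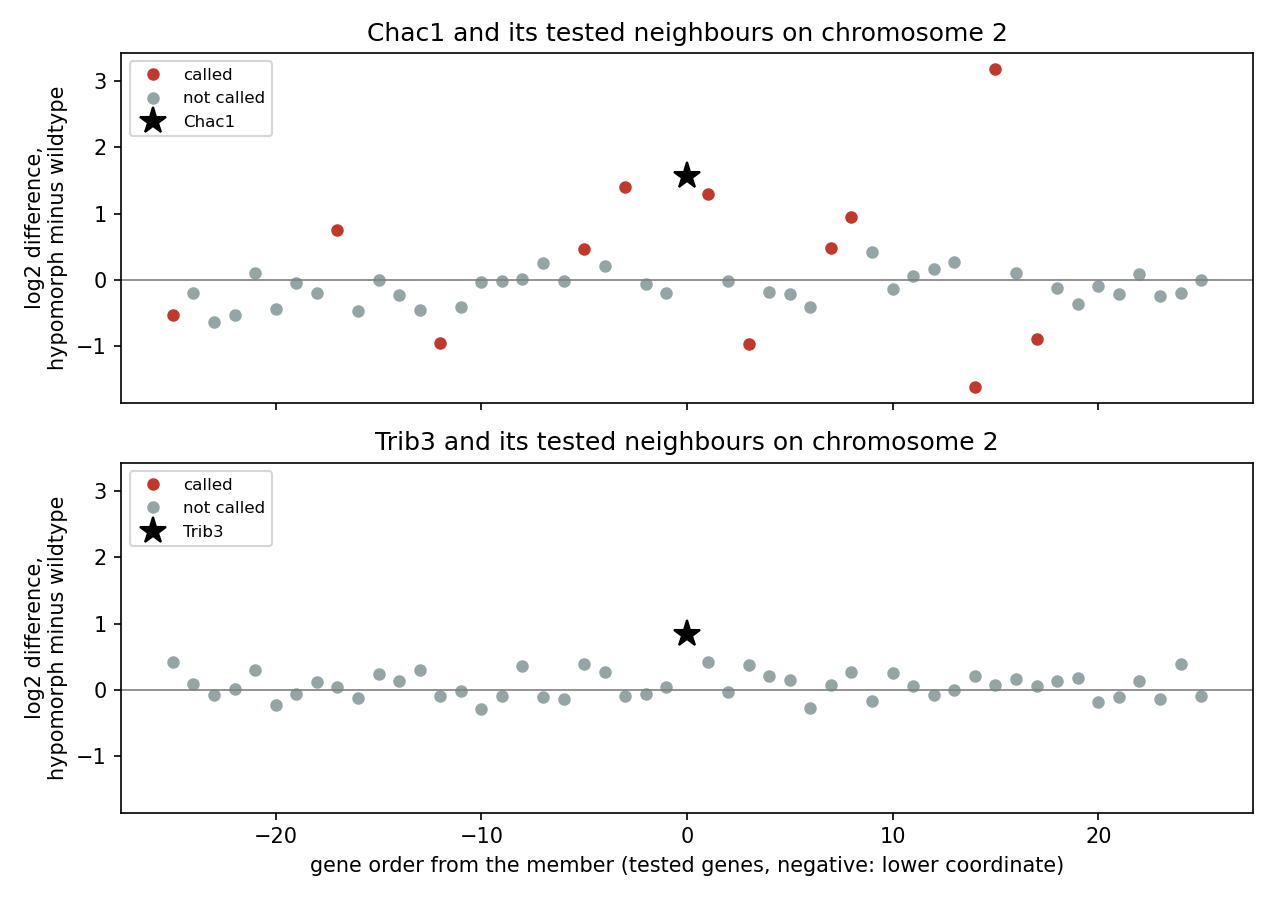
Differences (y axis, hypomorph minus wildtype of log2(intensity + 32)) of the 25 tested genes on either side of Chac1 (top) and of Trib3 (bottom), in the order of genes on chromosome 2 (x axis), with called genes in red and the member as a star. Around Chac1 12 of 50 neighbours were called and went both ways, and around Trib3 0 of 50 were called.

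Genes of the wider programme, taken from 7 lists of stress response genes other than the members, mostly did not pass the test. Of 79 on the array 70 were bright enough to test, of which 3 rose and 0 fell, beside 2.53% and 1.7% of all genes tested, so the count was close to the background. Their median difference was 0.05, against -0.02 for all genes tested. In these 70, 43 differences were above 0, a larger share than the 44.8% of all genes tested. Both hypomorph arrays lay above both wildtype arrays for 23 of the 70, also a larger share than the 23.4% of all genes. They lay below for 15 of the 70, a smaller share than the 30% of all genes. As the lists were chosen with earlier results of these data known, nothing is read from these shares. An unadjusted p under 0.05 was found for 16 of the 70, beside 21.7% of all genes, and the counts at that level given for single lists below are read against that share.

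The 3 genes that rose were Stc2, Aldh1l2 and Eif4ebp1. Stc2, a secreted glycoprotein induced in the unfolded protein response, read 826 and 789 in hypomorph, against 446 and 444 in wildtype samples (difference 0.81, SE 0.12, limma adjusted p = 0.00448). Its groups were far apart, and it was called without each array in turn. With the 3 probe sets of Stc2 averaged the call was lost (difference 0.39, limma adjusted p = 0.0596). The other probe sets differed by 0.53 (SE 0.15) and -0.16 (SE 0.17). Aldh1l2, a mitochondrial enzyme of folate metabolism, read 375 and 414 in hypomorph, against 208 and 231 in wildtype samples (difference 0.76, SE 0.14, limma adjusted p = 0.021). Both hypomorph arrays were well above both wildtype arrays, and the call was lost without wildtype replicate 1, where the difference was 0.69, with no filter on dim probe sets and without an intensity trend. Eif4ebp1, a repressor of cap-dependent translation that ATF4 induces, was read by a probe set of the class that can match other sequences. Eif4ebp1 gave 3014 and 2583 in hypomorph, against 2133 and 2085 in wildtype samples (difference 0.40, SE 0.091, limma adjusted p = 0.0439). Among the fits without 1 array it was called only without hypomorph replicate 2, where the difference was 0.51, and not without hypomorph replicate 1 (0.29), wildtype replicate 1 (0.41) or wildtype replicate 2 (0.38), and its call was also lost with median centring, with no filter, without a trend and with its probe sets averaged (0.21). Stc2, Aldh1l2 and Eif4ebp1 lie on chromosomes 11, 10 and 8. Calls among their neighbours were not counted, and the part of strain alleles in their levels was not tested.

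Upstream of ATF4, 0 of 14 eIF2 kinases and eIF2 factors were called by limma and 3 had an unadjusted p under 0.05, with the smallest for Eif2ak4 and for the exchange factor subunit Eif2b1, at -0.39 (SE 0.12). The endoplasmic reticulum kinase gene Eif2ak3 (PERK) read 591 and 610 in hypomorph, against 534 and 678 in wildtype samples. Its groups overlapped. Among ATF4 partners and related factors 0 of 4 tested genes were called and 2 had an unadjusted p under 0.05, the oxidative stress factor Nfe2l2 at -0.28 (SE 0.077) and Nupr1 at 0.20 (SE 0.065). Atf3 and Atf5 were too dim to test.

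Of 8 tested amino acid transporters 0 were called and 2 had an unadjusted p under 0.05, Slc1a4 at 0.30 (SE 0.13) and Slc38a2, which takes up neutral amino acids, at -0.17 (SE 0.067). The cystine carrier gene Slc7a11, which supplies glutathione synthesis, read 47.0 and 56.5 in hypomorph, against 54.6 and 43.4 in wildtype samples, near the dim end of what was tested, and its groups overlapped. Aldh1l2 was the only 1 of 12 genes of amino acid and one-carbon synthesis that was called, and 4 had an unadjusted p under 0.05. Besides Aldh1l2 these were Gpt2 at 0.43 (SE 0.13), Mthfd2 at 0.22 (SE 0.076) and Cth at -0.30 (SE 0.11). Of 12 tested aminoacyl-tRNA synthetases and export factors 0 were called and 1 had an unadjusted p under 0.05, Wars at 0.30 (SE 0.098), and Nars had the next smallest, at -0.13 (SE 0.059). Of 11 autophagy genes that ATF4 and CHOP can induce 0 were called and 1 had an unadjusted p under 0.05, Gabarap at 0.66 (SE 0.17), followed by the receptor gene Sqstm1 at 0.30 (SE 0.15).

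The other branches of the unfolded protein response, which run through ATF6 and IRE1, had 0 of 19 genes called and 3 at an unadjusted p under 0.05, with a median difference of -0.07. The chaperone gene Hyou1 was at 0.30 (SE 0.085) and Sel1l, of the degradation machinery, at -0.17 (SE 0.058). The central chaperone gene Hspa5 (BiP) read 5070 and 4415 in hypomorph, against 4980 and 5022 in wildtype samples, a difference of -0.08 (SE 0.075). Its groups overlapped.

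Of 10 heat shock genes, most of them cytosolic, 4 fell and 0 rose (limma), beside 1.7% and 2.53% of all genes, with a list median of -0.15. The list included the mitochondrial chaperonin genes Hspd1 and Hspe1, neither of them called. Without an intensity trend 2 of 10 were called. The falls were led by Hspa1b (-1.53), Hspa1a (-1.24), Hsph1 (-0.66) and Hspb1 (-0.55). The probe set of Hspb1 is of the class that can match other sequences. Hspa1a and Hspa1b are near-identical, so which of them is measured is uncertain, and Hspb1 lost its call without hypomorph replicate 1, without wildtype replicate 1, with no filter on dim probe sets, without a trend and with its probe sets averaged. Of 6 tested immediate early genes 1 fell, Fos at -0.49 (SE 0.11, limma adjusted p = 0.0395), while the list's median difference was 0.20. Among the fits without 1 array, Fos was called only without hypomorph replicate 2, and it was also not called with no filter or without a trend. The heat shock and immediate early lists were likewise chosen with earlier results of these data known, so nothing is read from their shares. The part of the shifts of these genes in the levels of the stress-induced members was not tested.

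**Figure D4:**
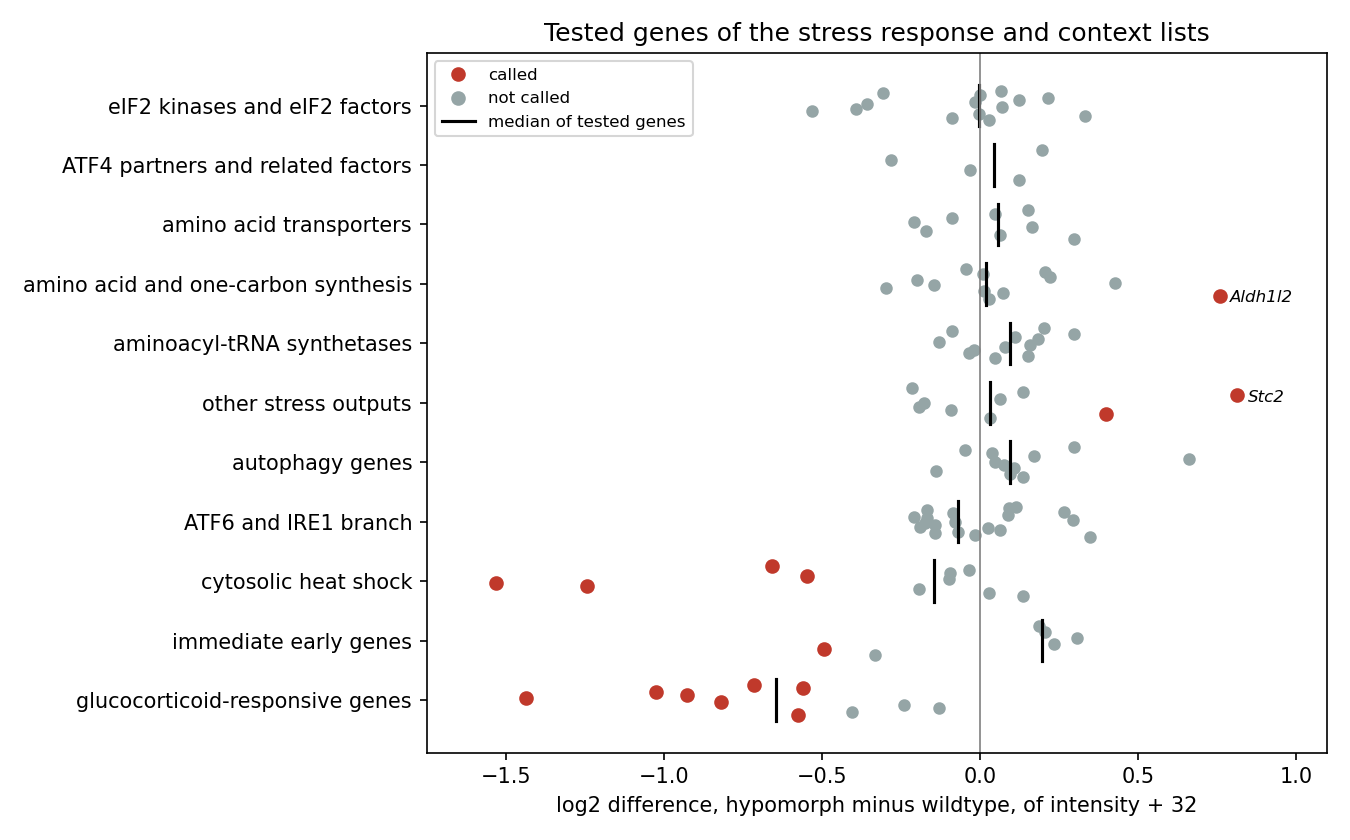
Differences (x axis, hypomorph minus wildtype of log2(intensity + 32)) of the tested genes of 7 stress response lists, of the ATF6 and IRE1 branch and of 3 context lists, a point per gene at its brightest probe set, red where called, with a vertical line at each list's median. Stc2 and Aldh1l2 stand apart from the rest of their lists, and the heat shock and glucocorticoid-responsive genes that were called all lie below 0.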

How the data were processed

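Per the labels' protocols, the PicoPure kit yielded RNA from laser-captured cells, and RiboAmp Plus amplified it and labelled it with biotin. The authors deposited 1 linear intensity per probe set and array; the method of summary, background correction and scaling was not given in the sources used here. Among the arrays the highest trimmed mean was 1.02 times the lowest, so nothing was rescaled. Gene symbols came from the platform annotation (34945 of 45037 probe sets with 1 symbol), and 34741 gene IDs matched RefSeq (GRCm38.p6), used for names, gene order and promoter windows.

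The log2(intensity + 32) values of the 22519 probe sets at or above the median mean (6.32) were fitted with group as the only term in limma 3.58.1 under R 4.3.3 (lmFit, eBayes with an intensity trend, 2 residual and 7.81 prior degrees of freedom), with two-sided Benjamini-Hochberg adjusted p-values over all of them. The brightest probe set stood for a gene. The fit was tested on simulated arrays of 22519 probe sets with 200 changed, and called 14% of the probe sets shifted by 0.5 (log2), 52% of those shifted by 1 and 100% of those shifted by 2.

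The members, lists and markers were chosen with earlier results of these data known. All members, Atg16l1, up to 4 called genes in each direction per list (or the 2 with the smallest p where none was called) and genes around Chac1 were named by rule. Xist, Hspa5, Eif2ak3, Slc7a11, Gpt2, Mthfd2, Cth, Hspd1, Hspe1, Vil1, Fabp2 and the 2 dim factors Atf3 and Atf5 were named after their values were seen. The same replicate numbers in both groups were not taken as pairs, since no label says what they share.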

Additional observations from a re-analysis of the deposited data

How the results depend on the processing

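Of 202 alternative values of the tested member probe sets, 178 kept their direction and their side of the threshold, 12 lost the call, 7 gained one and 5 reversed. The 5 were of differences near 0: Sesn2 at 0.019 with quantile normalisation, and, without 1 array, Sesn2 (-0.071 to 0.052), Ddit3 (-0.15 to 0.27) and the dimmer Psat1 probe set (-0.050 to 0.20). The call of Chac1 was kept under every alternative run.

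Leaving out each array in turn moved the probe sets called, 836 in all, to between 500 and 1648, the member probe sets called to between 1 and 5, the member median difference to between 0.12 and 0.22, and the called neighbours of Chac1 to between 6 and 13. In the lists it gave 0 to 2 calls for amino acid and one-carbon synthesis, 1 to 2 for other stress outputs, 0 to 1 each for transporters, tRNA synthetases, eIF2 factors, the ATF6 and IRE1 branch and immediate early genes, 3 to 5 for heat shock and 5 to 7 for glucocorticoid-responsive genes. The lone array of a group is then assumed to vary like the other group.

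With no filter on dim probe sets 303 probe sets, 1 member probe set (Chac1) and 5 neighbours of Chac1 were called, with 0 calls in amino acid and one-carbon synthesis, 1 in other stress outputs and 0 among immediate early genes. A filter at the 75th percentile gave 556 probe sets and 6 neighbours, with fewer genes tested. Without an intensity trend 323 probe sets, 2 member probe sets (Chac1 and Trib3) and 7 neighbours were called, with 0 calls in amino acid and one-carbon synthesis, 1 in other stress outputs, 2 for heat shock, 0 for immediate early and 4 for glucocorticoid-responsive genes. Median centring left 1 call in other stress outputs, and a robust prior gave 1 among autophagy genes. Averaging every probe set of a gene gave 1 call among ATF4 partners, 0 in other stress outputs, 1 among autophagy genes and 4 for glucocorticoid-responsive genes. Without Chac1, an alternative chosen after seeing the data, the member median was 0.11. The motif TGACGTCA in place of TGATGNAA was found in 1 member in place of 3. Other than by this construction, the cause of these shifts was not tested.

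With the replicate number as a replicate block, 3206 probe sets and 8 member probe sets were called, adding 1 each of Atf4, Ddit4, Psat1 and Phgdh, with 3 calls among eIF2 factors, 2 among ATF4 partners, 1 among transporters, 2 in amino acid and one-carbon synthesis, 1 each for tRNA synthetases, autophagy genes and the ATF6 and IRE1 branch, and 2 immediate early genes. Deviations of same-numbered arrays correlated at 0.26 over the tested probe sets. With 2 pairs, 1 correlation cannot show that the numbers pair the samples.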

Other observations

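Markers of other intestinal cell types that the captured regions could hold were read in the same fit. They, too, were chosen with earlier results of these data known. Of 8 enteroendocrine markers 4 fell and 0 rose in hypomorph samples (limma), beside 1.7% and 2.53% of all genes tested, among them the hormone genes Gip, at 72.0 and 47.3 in hypomorph against 171 and 158 in wildtype samples, and Gcg, at 1981 and 2177 in hypomorph against 3098 and 2892 in wildtype samples. Of 5 tested lymphocyte markers 2 rose, beside 2.53% of all genes, the granzymes Gzmb, at 516 and 551 in hypomorph against 220 and 149 in wildtype samples, and Gzma, at 1693 and 1514 in hypomorph against 952 and 939 in wildtype samples. The other 3 were not called, with the general leukocyte marker Ptprc at -0.26 (SE 0.11) and both hypomorph arrays below both wildtype arrays, Cd8a at 0.08 (SE 0.17) and Cd3g at 0.04 (SE 0.23). Of 4 fibroblast markers 2 rose, beside the same 2.53%, Col1a1 by 0.86 and Col1a2 by 0.26. Col1a2 and the enteroendocrine marker Chgb, at -0.31, were each called in only 1 of the 4 fits without 1 array, and Tac1, another of the 4 that fell, in 3. Of 6 goblet cell markers 0 were called by limma and 4 had an unadjusted p under 0.05, beside 21.7% of all genes, and of 4 stem cell markers 0 were called and 1 had one. Of 4 pancreatic acinar markers on the array only Cela1 was bright enough to test, at -0.05 (SE 0.17), and the 4 summed to 122 and 133 in hypomorph, against 121 and 134 in wildtype samples.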
